A study of Mus musculus with 8 samples.

Results

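The Ugt1a locus is a stretch of mouse chromosome 1 (chr1:88055411-88220002 in mm10, 164.6 kb) that holds a family of genes for UDP-glucuronosyltransferases. It was examined here through 8 member genes (Ugt1a1, Ugt1a2, Ugt1a5, Ugt1a6a, Ugt1a6b, Ugt1a7c, Ugt1a9 and Ugt1a10, of 21631 protein-coding genes) and through every listed ATAC-seq region in the locus with 20 kb added on either side (chr1:88035411-88240002). That window held 15 of the 41425 regions in all lists. Regions of different lists that overlapped by at least 1 bp were merged into 9 sites, of 21051 in the genome, so that each was counted once. Since the members were chosen by their listed regions, the counts below are a description and carry no test.

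UDP-glucuronosyltransferases sit in the endoplasmic reticulum and attach glucuronic acid from UDP-glucuronic acid to bilirubin, steroids, phenols, drugs and carcinogen metabolites, which makes them water-soluble for excretion in bile and urine. The genes of this locus are built in an unusual way: each has its own promoter and first exon, and all splice to one common set of downstream exons, so that the enzymes differ in their substrate-binding part and share the part that binds the sugar donor. The liver is a main site of their expression, where ligand-activated and stress-activated factors such as AHR and NRF2 are known regulators.

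Accessible DNA was mapped by ATAC-seq, which uses the Tn5 transposase to cut and tag open chromatin, in Hepa-1c1c7, an established mouse hepatoma line in wide use for work on AHR. All 4 groups were this line: untreated cells (0 µM) and cells given potassium chromate, a source of hexavalent chromium, at 0.1, 0.5 or 1 µM for 72 h, with 2 libraries each. The files used here are 1 list of regions per treated dose, each named together with the untreated libraries, so values have no replicate error, and a difference between doses has no spread to be compared with. The labels name about 75 M read pairs of 100 bp, the same for all libraries, while the lists hold no read counts from which the depth of each could be checked. Whether a listed region was more open than in untreated cells is not stated in the labels. The 1 µM libraries carry another label prefix than all others, which cannot be told apart from their dose.

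The lists held 14401, 11130 and 15894 regions at 0.1, 0.5 and 1 µM. Of 11 hepatocyte marker genes, Foxa2 alone had a region midpoint within 1 kb of a gene end, at each dose, where 19.1%, 18.4% and 22.4% of all protein-coding genes had one at 0.1, 0.5 and 1 µM. Alb, the albumin gene, had none there. Of 12 markers of other liver cell types, 0, 1 and 2 had one in order of dose: Dcn, a fibroblast and stellate cell marker, at 0.5 and 1 µM, and Krt7, a bile duct marker, at 1 µM.

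The promoters of the members are shown first, because they are what distinguishes one Ugt1a gene from another. RefSeq sequences (GRCm38.p6, the assembly of mm10) of 250 bases before to 50 bases after the gene start were found for 7 of the 8 members, without Ugt1a6b, and all 7 lay on the plus strand. Exact letters of 6 motifs were searched on both strands, those of AHR, AP-1, NRF2 (the antioxidant response element), FOXA and CTCF and the TATA box. Their letters stand beside their counts. The 5 windows below are the alike pair Ugt1a10 and Ugt1a9 and the 3 members with a motif match, each written 5′ to 3′ on the plus strand with every motif match in capitals.
Ugt1a10, chr1:88055161-88055460: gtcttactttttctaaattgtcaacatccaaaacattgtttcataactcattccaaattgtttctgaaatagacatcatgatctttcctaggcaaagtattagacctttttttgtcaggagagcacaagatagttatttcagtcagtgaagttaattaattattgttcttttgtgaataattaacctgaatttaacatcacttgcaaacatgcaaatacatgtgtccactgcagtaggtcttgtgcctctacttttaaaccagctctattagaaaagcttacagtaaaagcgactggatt
Ugt1a9, chr1:88070529-88070828: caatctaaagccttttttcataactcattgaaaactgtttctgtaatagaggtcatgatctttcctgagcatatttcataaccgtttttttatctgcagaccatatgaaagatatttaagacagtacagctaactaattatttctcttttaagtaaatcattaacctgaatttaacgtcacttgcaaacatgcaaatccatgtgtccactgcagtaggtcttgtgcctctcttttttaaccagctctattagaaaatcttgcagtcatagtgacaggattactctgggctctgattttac
Ugt1a6a, chr1:88134559-88134858: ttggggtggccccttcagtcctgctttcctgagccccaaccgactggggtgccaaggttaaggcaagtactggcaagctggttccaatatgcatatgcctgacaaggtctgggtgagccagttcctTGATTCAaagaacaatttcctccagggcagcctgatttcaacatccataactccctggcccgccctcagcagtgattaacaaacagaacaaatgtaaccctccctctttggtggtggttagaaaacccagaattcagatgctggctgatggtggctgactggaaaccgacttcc
Ugt1a5, chr1:88165762-88166061: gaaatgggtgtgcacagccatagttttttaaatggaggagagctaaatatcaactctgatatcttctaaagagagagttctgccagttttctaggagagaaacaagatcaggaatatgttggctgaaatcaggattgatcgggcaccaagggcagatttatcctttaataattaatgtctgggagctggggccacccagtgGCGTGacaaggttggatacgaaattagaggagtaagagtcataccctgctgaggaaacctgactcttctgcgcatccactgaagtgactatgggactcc
Ugt1a2, chr1:88200361-88200660: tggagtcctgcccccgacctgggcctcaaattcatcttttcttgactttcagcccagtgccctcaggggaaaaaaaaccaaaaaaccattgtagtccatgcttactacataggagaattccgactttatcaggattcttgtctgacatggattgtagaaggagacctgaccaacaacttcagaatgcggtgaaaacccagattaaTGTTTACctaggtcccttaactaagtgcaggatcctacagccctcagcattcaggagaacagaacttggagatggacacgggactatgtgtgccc

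Few motif letters were found in the member promoters. The AHR core, GCGTG, was found in Ugt1a5 alone, 49 to 45 bases before the start, against 32.4% of all 32851 promoter windows. The AP-1 letters TGANTCA occurred once, 124 to 118 bases before the start of Ugt1a6a, which encodes an enzyme for planar phenols, and in 7.81% of all windows. The FOXA letters TGTTTAC occurred once, 45 to 39 bases before the start of Ugt1a2, and in 3.65% of all windows. The antioxidant response element TGACNNNGC, whose letters can overlap those of AP-1, matched 0 of 7 members and 12.4% of all windows. The TATA box, searched as TATAAA, matched 0 of 7 (13.6% of all windows), and the core of the CTCF motif 0 of 7 (1.15%). These counts describe letters in windows of 300 bases and say nothing of binding further upstream.

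Apart from 1 pair, the member promoters were unlike one another. Ugt1a10 and Ugt1a9 shared 70.9% of aligned columns in a global alignment. The other pairs among the 21 lay between 43.4% and 48.8%, and the median over all pairs was 47.3%. All 7 were poor in CpG, with 1 to 4 CpG dinucleotides each (median 2, against 7 in all promoter windows) and 32.7% to 51.7% G and C (median 44.7% against 52.7%).

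No region of any list overlapped any of the 7 member promoters. Over the genome, 13.1%, 12.2% and 15.4% of 32619 promoter windows were overlapped by a region at 0.1, 0.5 and 1 µM. Overlap differed with CpG number. Windows with at most 4 CpG, the most that a member had, were overlapped in 1.69%, 1.24% and 1.91% of 12291 cases, and windows with more in 20%, 18.9% and 23.6% of 20328 cases. The member promoters thus belong by composition to a class that was rarely listed anywhere in these data.

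**Figure D1:**
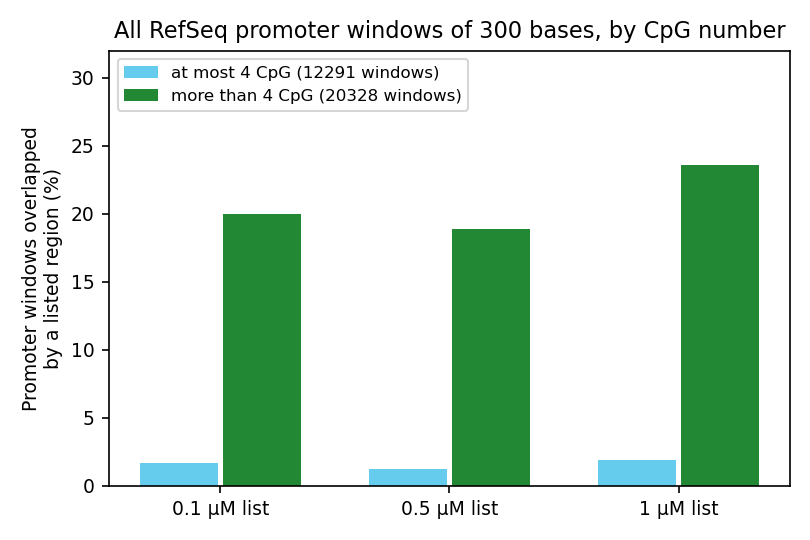
Share of all RefSeq promoter windows of 300 bases that a listed region overlapped (vertical axis, %), for each list (horizontal axis), split at 4 CpG per window, the highest number in a Ugt1a promoter. The bars for CpG-poor windows stay between 1.24% and 1.91% and those for other windows between 18.9% and 23.6%.

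Every region of the locus lay instead at its shared downstream end. By annotation 7 members end at 88220002, and Ugt1a6b is annotated to end 1004 bp earlier. The 15 regions fell between chr1:88216107 and chr1:88222246, a span of 6140 bp. The first of them started 4148 bp after the start of Ugt1a1, the last gene of the row. No listed region lay in the remaining part of the locus upstream, which holds the starts of all 8 members, the short chaperone gene Dnajb3 and 6 pseudogenes, or in the part of Mroh2a that reaches into the downstream flank.

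**Figure D2:**
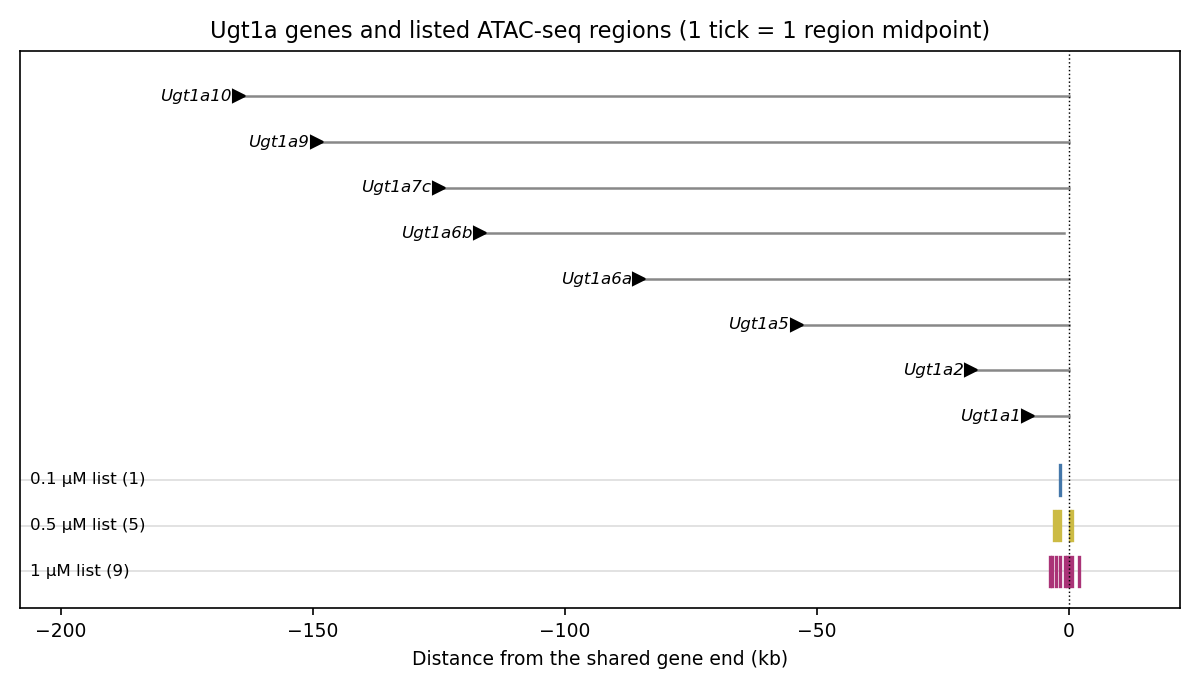
The 8 Ugt1a genes (arrowheads mark gene starts, grey lines run to the annotated end) and the midpoints of all listed regions (ticks) at each dose, by distance from the shared gene end in kb. The ticks, 1, 5 and 9 in order of dose, all stand at the right edge, and none stands at a gene start.

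The distance from a gene start to the closest region within the window was set by this arrangement. At 1 µM it was 4.15 kb for Ugt1a1, 15.5 kb for Ugt1a2, 50.1 kb for Ugt1a5, 81.3 kb for Ugt1a6a and 112.85 kb for Ugt1a6b. For Ugt1a7c, Ugt1a9 and Ugt1a10, which lie furthest upstream, the closest region within the window was 121.11, 145.33 and 160.7 kb away. For Ugt1a10 a region upstream of the window, in or near Dgkd, was closer at 1 µM, at 154 kb. The distances within the window order the genes by their place in the row and hold no information on single genes beyond that.

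At the shared end, the number of listed regions differed between the lists. The 0.1 µM list held 1 region, the 0.5 µM list 5 and the 1 µM list 9. Per 10000 regions of the list this was 0.694, 4.49 and 5.66. The 0.1 µM list was longer than the 0.5 µM list. Without replicate lists, neither step has an error to be compared with.

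Site 4 (chr1:88218059-88218545) was the only site listed at every dose. It lay 1943 to 1457 bp before the shared end, inside the annotated body of all 8 members. Its region was 348 bp wide with a score of 10 at 0.1 µM, 487 bp with a score of 8 at 0.5 µM, and 316 bp with a score of 11 at 1 µM. The score is the authors' own number per region, its scale is not stated, and it is used here only to rank regions within a list. By that rank, site 4 stood at percentile 44.8, 36 and 43.4, a little below the middle of each list.

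Site 3 (chr1:88216992-88217911), 3010 to 2091 bp before the shared end, was listed at 0.5 and 1 µM. At 0.5 µM it consisted of 2 regions, of 239 bp (score 5) and 425 bp (score 19), and at 1 µM of 1 region of 831 bp (score 18) that overlapped both. It held the highest-ranked regions of the locus, at percentile 79.8 of the 0.5 µM list and 65 of the 1 µM list. No 0.1 µM region lay there.

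Site 7 (chr1:88219895-88220329) lay at the shared end itself. Its 1 µM region, of 249 bp and score 6, crossed the end, and its 0.5 µM region, of 311 bp and score 4, began 17 bp past it. Both ranked low, at percentile 13.2 and 2.59. Site 8 (chr1:88220449-88220870) followed 447 bp past the end, with a score of 9 at 0.5 µM and 11 at 1 µM, and percentiles of 42.9 and 43.4. These 2 sites are the ones that put a region within 1 kb of the end of 7 members at 0.5 µM, and at 1 µM sites 5 and 6 did so too.

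Sites 1, 2, 5, 6 and 9 were listed at 1 µM only. Sites 1 (chr1:88216107-88216325) and 2 (chr1:88216524-88216722) were 219 and 199 bp wide with scores of 10 and 9. They lay closest to the start of Ugt1a1, inside the annotated body of all 8 members. Sites 5 (chr1:88219112-88219370, score 5) and 6 (chr1:88219427-88219754, score 9) lay in the last 1 kb of the genes, between the end of Ugt1a6b and the shared end. Site 9 (chr1:88221727-88222246, score 8) began 1725 bp past the shared end, outside any annotated gene. All 5 ranked below the middle of the list, at percentiles from 6.05 to 39.1.

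**Figure D3:**
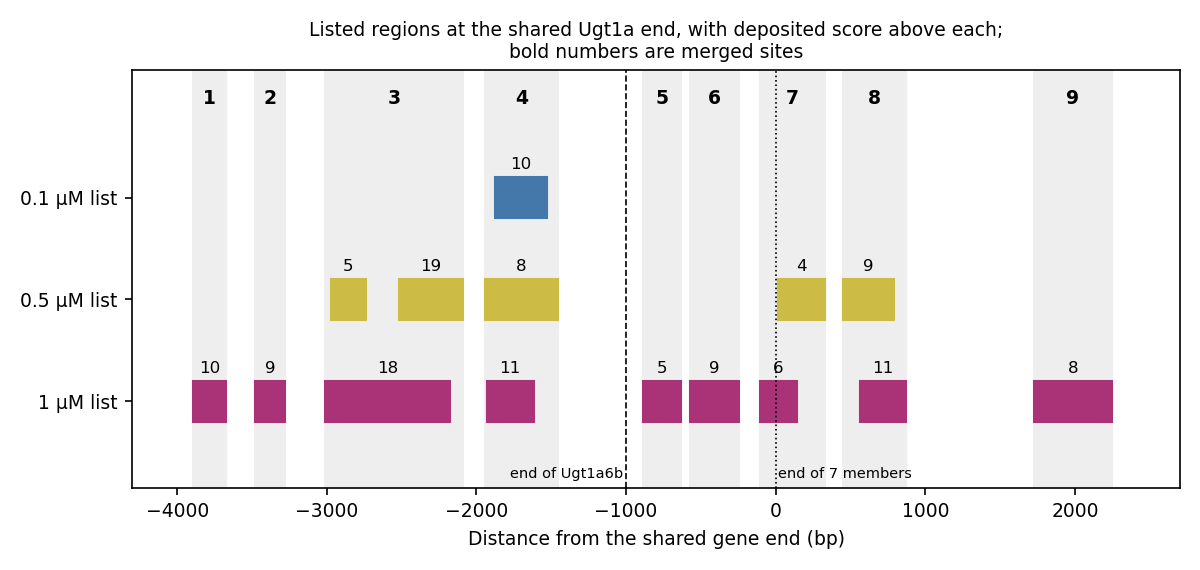
Listed regions around the shared gene end at each dose (coloured bars, drawn to scale in bp from the shared end), with the deposited score above each bar and the 9 merged sites shaded and numbered. Site 4 carries a bar in every list, sites 3, 7 and 8 at 0.5 and 1 µM, and sites 1, 2, 5, 6 and 9 at 1 µM only.

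Of the 9 sites, 1 was listed at all doses, 3 at 0.5 and 1 µM, 5 at 1 µM only, and 0 at any other combination. Over all 21051 merged sites, 34.5% were listed at all doses, 5.58% at 0.5 and 1 µM only and 19.3% at 1 µM only, while 15% were listed at 0.1 µM only. The lists share their control libraries, so their overlap is not read as a result. With a reciprocal overlap of 50% in place of 1 bp, 2 of 12 sites were listed at several doses in place of 4 of 9. Without the 1 µM list, 1 of 5 sites was shared.

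The regions were many at 0.5 and 1 µM, and most ranked below the median of their list by score. The one 0.1 µM region had a score of 10, against a list median of 11. At 0.5 µM scores ran from 4 to 19 with a median of 8, against 10, and 1 of 5 regions lay above the list median (47.7% of the list does). At 1 µM they ran from 5 to 18 with a median of 9, against 13, and 1 of 9 lay above it (47.2% of the list). Median widths were 348, 340 and 304 bp, against 339, 324 and 353 bp in the lists, and 1 of 1, 3 of 5 and 2 of 9 regions were wider than the median of their list.

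**Figure D4:**
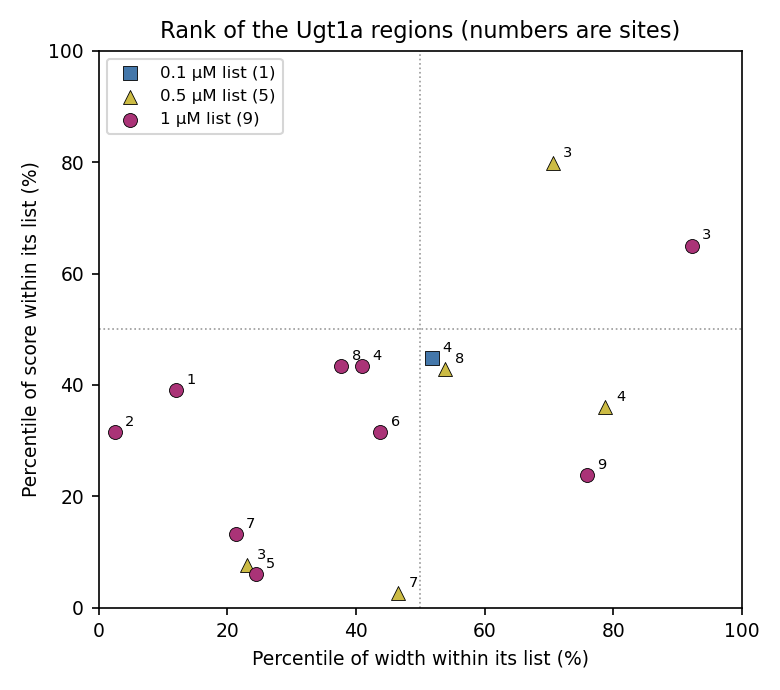
Rank of each of the 15 regions by width (horizontal axis) and by score (vertical axis) within its own list, as percentiles, with site numbers beside the points. The regions of site 3 with scores of 19 and 18 are the points above the middle by score, and the other 13 points lie below it.

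The regions lay close together. At 1 µM the 9 regions followed one another within 6140 bp, with gaps of 56 to 856 bp (median 258). In the whole 1 µM list, 1 of 15734 runs of 9 consecutive regions was as short, this one. At 0.5 µM the 5 regions lay within 3762 bp, and 4 of 11050 runs of 5 consecutive regions were as short, in 4 separate places of which 2 were on chromosome 1. Run length and span were taken from the locus itself, so these are ranks and not tests.

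Over the whole window, most of which was empty, density was lower than within the cluster. The window held 4.89, 24.4 and 44 regions per Mb in order of dose, against 8.49, 6.86 and 9 on chromosome 1 and 5.54, 4.28 and 6.11 over all chromosomes. The ratio to all chromosomes was 0.883, 5.71 and 7.2, and for bases covered 0.732, 5.28 and 5.93. Of 12700 windows of the same length laid end to end over the genome, 42.8% had at least 1 region at 0.1 µM, 4.31% at least 5 at 0.5 µM and 1.92% at least 9 at 1 µM. On chromosome 1 these shares were 58.1%, 7.66% and 3.25%. A number that rose from each dose to the next, as here, was seen in 1.94% of all windows. At 0.1, 0.5 and 1 µM, 42.8%, 36.1% and 44.5% of windows held a region. A window without one at 0.5 or 1 µM cannot rise in this way.

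**Figure D5:**
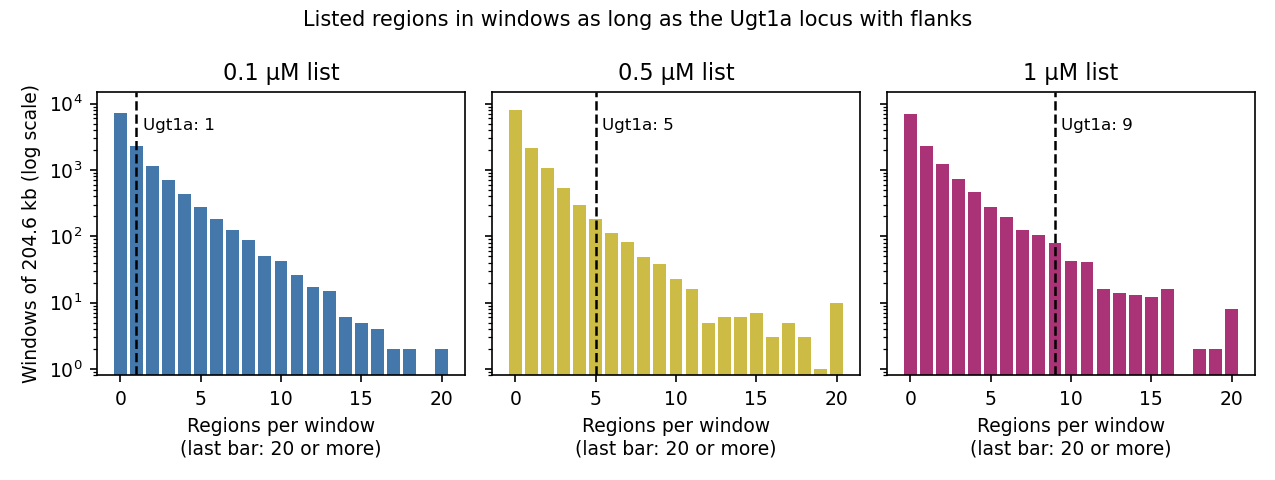
Number of genome windows of 204.6 kb (vertical axis, log scale) by the number of listed regions they hold (horizontal axis), for each list, with the Ugt1a locus marked by a dashed line at 1, 5 and 9. The locus sits in the body of the distribution at 0.1 µM and in its upper tail at 0.5 and 1 µM.

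Counted gene by gene, the shared end multiplies a few regions into many calls. A region midpoint lay within 1 kb of either gene end in 1 of 8 members at 0.1 µM and in 8 of 8 at 0.5 and at 1 µM, where 19.1%, 18.4% and 22.4% of all protein-coding genes had one. The member called at 0.1 µM was Ugt1a6b, whose annotated end is 1004 bp before that of the others. The same 0.1 µM region lies within 2.5 kb of the end of all 8, and with that distance the count was 8 of 8 at every dose (21.7%, 20.8% and 25.4% of all genes). In the gene body with 10 kb on either side it was again 8 of 8 at every dose (31.6%, 30.1% and 36.7% of all genes). The apparent absence of the other 7 at 0.1 µM rests on the distance chosen, as site 4 was listed at that dose too. With the shared end at 88220002 counted once, the 1 kb rule gives 0, 1 and 1 locus in place of 1, 8 and 8 genes. With only the stronger 50% of each list by score, 0 of 8 members were called at any dose (11.8%, 10.5% and 13.6% of all genes).

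It is the far end, not the start, that was listed. Within 1 kb of the gene start, 0 of 7 members on a known strand had a region at any dose, while 18.7%, 18% and 22% of 17274 protein-coding genes did. All 7 have promoter windows with at most 4 CpG. By the overlap rule used for promoters above, 1.69%, 1.24% and 1.91% of such windows were overlapped. A region at the far end without one at the start was found in 0 of 7, 7 of 7 and 7 of 7 members in order of dose, and in 0.637%, 0.712% and 0.822% of genes. Because the 7 members have 1 end in common, they amount to 1 observation. Listed regions at far gene ends were thus uncommon in these data, and the members share this trait at 0.5 and 1 µM.

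The region names carry running numbers, and some numbers have no region in the lists. In the stretch from the last region upstream, in or near Dgkd, to the first region of the locus, 4, 3 and 4 numbers were without a region at 0.1, 0.5 and 1 µM. That stretch was 365, 316 and 315 kb long, and 11.9%, 16.5% and 12% of the stretches between neighbouring regions in the lists were as long. Regions with those numbers could have lain anywhere in it, the first exons included, so the empty part of the locus is empty in the lists and is not shown to have been closed. Between the regions of the locus, 0 numbers were missing at 0.5 and 1 µM. At 0.1 µM the locus held 1 region, so no such stretch existed. Between the last region of the locus and the next region, in Hjurp, 21, 30 and 31 were missing, of 328, 342 and 369 in the lists. At 0.1 µM, sites 1 to 3 lie in the stretch with 4 missing numbers and sites 5 to 9 in that with 21. Their absence from that list is thus not shown to be an absence of open chromatin. The gap in numbering beside the locus was the third longest, the longest and the second longest of its list, and its part in the counts above was not tested.

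Other genes of glucuronidation were counted at gene ends by the same rule, with the shares of all genes as above. Of 13 other UDP-glycosyltransferase genes, 1, 0 and 1 had a region in order of dose (7.69%, 0% and 7.69%). In each case it was Ugt2b34 (scores 9 and 16 at 0.1 and 1 µM). Ugt2b1, a main liver enzyme of the second family, had none at a gene end. Of 12 genes that supply UDP-glucuronic acid or handle glucuronides, 1, 1 and 2 had one (8.33%, 8.33% and 16.7%). Gusb, the lysosomal enzyme that cleaves glucuronides, had one at every dose (scores 9, 4 and 5), and Ugdh, which makes UDP-glucuronic acid, at 1 µM (score 11). In the gene body with 10 kb on either side, 6, 5 and 7 of these 12 genes had a region. By that rule the 13 other UDP-glycosyltransferase genes had one in 4, 1 and 4 cases. Of all genes, 31.6%, 30.1% and 36.7% had one. The low counts of the 12 thus held for gene ends only.

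Genes of heme synthesis, heme breakdown and bilirubin transport and conjugation had regions in 4, 5 and 5 of 11 cases (36.4%, 45.5% and 45.5%, against 19.1%, 18.4% and 22.4% of all genes), Ugt1a1 itself included at 0.5 and 1 µM. Bilirubin is the substrate of Ugt1a1. Hmox1, the heme oxygenase that opens the heme ring, had scores of 52, 8 and 35. The biliverdin reductase genes Blvra (9, 7 and 16) and Blvrb (7, 19 and 10) were also listed at every dose. Hmox2, the other heme oxygenase gene of the list, had no region in the gene or 10 kb on either side at any dose. Of the heme synthesis genes, Fech (7, 7 and 9), the gene of ferrochelatase, was listed at every dose. Alas1 had no region in the gene or 10 kb on either side. Scores of single genes are not read as differences between doses.

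Known regulators of Ugt1a genes had regions in 4, 6 and 6 of 22 cases, or 18.2%, 27.3% and 27.3%, against 19.1%, 18.4% and 22.4% of all genes. The shares at 0.1 and 1 µM are thus near that of all genes. Nfe2l2, the gene of NRF2 (scores 24, 7 and 28), Foxa2 (32, 24 and 23), Cebpb (12, 8 and 15) and Nr1h4, which encodes the bile acid sensor FXR (7, 8 and 15), were listed at every dose. Arnt, the partner of AHR (6 and 27), and Mafk, a partner of NRF2 (15 and 5), were listed at 0.5 and 1 µM. Ahr itself had none at a gene end.

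The AHR battery, the set of genes that AHR is known to induce, had regions in 2, 4 and 4 of 9 cases (22.2%, 44.4% and 44.4%, against 19.1%, 18.4% and 22.4% of all genes). Of these, 1, 2 and 2 were Ugt1a6a or Ugt1a6b. At 1 µM both had sites 5 and 6 within 1 kb of their ends. At 0.5 µM Ugt1a6a was called by sites 7 and 8 and Ugt1a6b by site 4. Nqo1, a quinone reductase, was listed at every dose (7, 11 and 14), and Cyp1b1 at 0.5 and 1 µM (12 and 26). Cyp1a1 and Cyp1a2 had no region in the gene or 10 kb on either side at any dose. Of 20 genes for other conjugation enzymes, 4, 5 and 5 had one (20%, 25% and 25%), close to the share of all genes. They included Nat2 (27, 35 and 51), Mgst1 (50, 24 and 12) and Tpmt (18, 6 and 24) at every dose and Gstm1 at 0.5 and 1 µM (4 and 26).

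By the 1 kb rule, 7 members had a region at a gene end at 0.5 and 1 µM and not at 0.1 µM. That was the pattern of 481 of 21631 protein-coding genes (2.22%), the members among them. The 7 members share 1 end, and within 2.5 kb of it they had a region at every dose. In the lists of genes used here, the pattern by the 1 kb rule was also that of Arnt, Mafk, Cyp1b1, Gstm1 and Dcn. For comparison, 2997 genes (13.9%) had a region at every dose, Ugt1a6b among them.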

How the data were processed

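Regions of accessible chromatin from ATAC-seq of Hepa-1c1c7 cells were analysed, as 3 lists for 8 libraries, 1 list for each treated dose. The tools Bowtie2, Picard and MACS2 and the build mm10 appear in the submitters' processing notes, with no version or role. How libraries were pooled, thresholds set, duplicates removed or reads shifted for Tn5 is not stated in the labels. The list names carry a tag starting with q and the words filtered, BL and unique, which nothing explains. A score was deposited by the authors for each region, a whole number of at least 4 on an unstated scale, which was used only for ranks within a list and as a description. The labels name about 75 M read pairs, and the depth behind each region is unknown, as the lists hold no counts.

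The members and gene lists were chosen with earlier results of these data known, so no test was made. All coordinates are 1-based. Genes, strands and promoters came from RefSeq tables of GRCm38.p6. A gene was called when a region midpoint lay within 1 kb of either end. Named were all members, all regions of the window and 10 defining genes. Listed genes at every dose or with the members' pattern were also named, up to 6 per list by mean rank. Krt7, Ugt2b34, Hmox2, Alas1, Trpm8 and Usp40 fall outside that rule and were named after their values were seen. Promoters were aligned with Biopython 1.88 (match 1, mismatch -1, gap opening -3, extension -0.5). Python 3.11.15, numpy 2.4.6 and pandas 2.3.3 were used, and calls and merging were tested on simulated regions. Protein sequences, exon positions and the sequence of the listed regions were not used here. A gene of the lists and its motif are not reported here.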

Additional observations from a re-analysis of the deposited data

How the results depend on the processing

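The number of regions across the locus depended on strength and flank. Without a flank it was 3 at 0.5 µM, with a flank of 50 kb it was 3 at 0.1 µM, and elsewhere both flanks kept it within 1.5 times. In the stronger 50% of each list it was 0, 1 and 1 at 0.1, 0.5 and 1 µM, and in the wider 50% it was 3 at 0.5 µM and 2 at 1 µM. Sites listed at several doses numbered 2 with a reciprocal overlap of 50%, and 1 without the 1 µM list, an alternative chosen after seeing the data.

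Member genes with a region at a gene end numbered 8 at 0.1 µM within 2.5 kb, within 5 kb and in the gene body with 10 kb. By the gene start alone the count was 0 at each dose. With the shared end counted once it was 0, 1 and 1, in the stronger 50% 0, 0 and 0, and in the wider 50% 0 at 1 µM. The other alternatives chosen after seeing the data were any base of a region in place of its midpoint, which changed no count, and Ugt1a8 as a further member, which gave 2 at 0.1 µM. Density by covered bases and the longer AHR motif TNGCGTG stayed within 1.5 times. For the 24 counts of the other gene lists, a distance of 2.5 kb raised 16 and the gene body with 10 kb raised 22, while the stronger 50% lowered 17.

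Leaving out each library in turn was not possible, since each list covers both libraries of a dose. No paired analysis was possible because the lists carry no replicate numbers and no result comes from a test. The planned comparison of protein sequences was not run. What depth limits cannot be stated, as the lists hold no counts.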

Other observations

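The last region of the locus was followed by 50.2, 52.6 and 50.6 kb without a listed region at 0.1, 0.5 and 1 µM. Past that stretch, regions were listed again in Hjurp, which encodes the chaperone that loads the centromeric histone CENP-A. Others touched Trpm8, the gene of a cold-sensing ion channel. In the 100 kb after the window the lists held 7, 10 and 17 regions at 0.1, 0.5 and 1 µM, and in the 100 kb before it 0 at each dose. The regions started at chr1:88268645 at the earliest and ended at chr1:88310755 at the latest. Scores ran from 4 to 16, from 4 to 18 and from 5 to 15, with medians of 8, 8.5 and 7, against list medians of 11, 10 and 13. From the last region upstream of the Ugt1a locus to the end of this stretch, 34, 44 and 44 numbers in the region names had no region, or 10.4%, 12.9% and 11.9% of all such numbers in the lists.

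Hjurp was touched by 4, 2 and 6 of these regions and Trpm8 by 1, 4 and 4, while Mroh2a, between Hjurp and the Ugt1a genes, was touched by 0 in every list. Usp40, the next protein-coding gene upstream of the locus, was also touched by 0. Mroh2a lies wholly in the stretch before Hjurp where 21, 30 and 31 numbers had no region at 0.1, 0.5 and 1 µM. Mroh2a is thus empty in the lists and is not shown to have been closed. Ugt1a8, which the RefSeq table holds and which is not among the 8 members, ends where Ugt1a6b does and had the same calls at its end.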
